A study of Mus musculus with 2 samples.

Results

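Chromatin enzymes that remove acetyl groups from histones, remove or add methyl groups on histones, and place or oxidise methyl groups on DNA were followed in RNA-seq gene counts of γδ T cells from mouse spleen. The genes were taken by symbol: the histone deacetylases (Hdac), sirtuins (Sirt), lettered histone demethylases (Kdm), DNA methyltransferases (Dnmt), Tet1 to Tet3 and the 2 Ezh genes. The rule found 44 of 24091 genes in the table, and 43 of them had a mean of at least 1 CPM (counts per 1000000, after scaling of the libraries) over both libraries. The exception was Dnmt3l, a catalytically inactive partner of the de novo DNA methyltransferases known from germ cells, which had 0 counts in both libraries, so that levels of up to 0.143 CPM in expanded and 0.139 CPM in freshly isolated cells (3 counts) remained possible.

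The series held 2 libraries of total RNA, 1 of IL-2 expanded cells and 1 of freshly isolated cells. Expanded cells had been sorted by flow cytometry, stimulated through CD3 (antibody bound to plastic) and CD28 (antibody in solution) and kept with recombinant mouse interleukin 2 at 100 U/ml for 5 days. Both libraries carry identical protocol text, so that the freshly isolated cells are uncultured only by their treatment label and the series design. Stimulation, culture and IL-2 cannot be told apart, and the sources used here do not give mouse strain, age or number of animals. Because each group has a single library, differences have no check against replicates and are given without tests. The 95% intervals are exact for independent reads and describe counting error alone. Reads counted without molecular identifiers can come from the same molecule, so that the intervals can be too narrow even for counting error.

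Total counts were 22204099 in the expanded and 20379385 in the freshly isolated library. CD3 chain transcripts, which define T cells, summed to 2094 CPM in expanded and 2231 CPM in freshly isolated cells; the constant genes of the γδ receptor were not analysed here. Other cell types and states differed between the libraries. Proliferation markers summed to 3532 CPM in expanded and 327.7 CPM in freshly isolated cells, with 10 of 11 at least 2-fold higher. Macrophage markers summed to 20.9 and 794 CPM in expanded and freshly isolated cells, with 5 of 9 (C1qa, C1qb, Vcam1, Sirpa and Lyz2) at 0 counts in expanded cells. B cell and plasma cell markers summed to 3.71 and 920.4 CPM in expanded and freshly isolated cells, with 5 of 8 (Cd79a, Ms4a1, Pax5, Jchain and Blnk) at 0 counts in expanded cells. Immediate early genes, which tissue handling can also induce, summed to 683 CPM in expanded and 15879 CPM in freshly isolated cells, with 8 of 9 at least 2-fold lower. The part of these cells and states in the values below was not tested, and in bulk RNA fewer cells of a type and less RNA per cell cannot be told apart.

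As background, histone deacetylases work mostly inside large corepressor complexes and are linked to gene silencing, while sirtuins do related chemistry at the expense of NAD. Lysine demethylases use flavin or, in the Jumonji family, iron and 2-oxoglutarate. EZH enzymes are the catalytic subunits of Polycomb repressive complex 2 (PRC2), whose histone mark the KDM6 enzymes remove. DNMT1 copies DNA methylation to new strands after replication, DNMT3 enzymes place it anew, and TET enzymes oxidise it on the way to removal; in T cells these systems are known for fixing or opening cytokine and effector genes.

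Expanded cells held more transcript of Ezh2 and Dnmt1, enzymes that copy repressive marks in dividing cells, and less of Kdm6b, Kdm7a, Tet1 and the class IIa deacetylases Hdac4, Hdac5, Hdac7 and Hdac9. Of the 43 measured genes, 2 were at least 2-fold higher in expanded cells, Ezh2 and Dnmt1, beside 22.4% of all 11715 measured genes. At least 2-fold lower were 13, which is 30.2% beside a background of 25.0%. The remaining 28 (65.1%) lay within 2-fold, beside 52.6% of all measured genes. The share of lower members was thus near the background, and the share of higher members, 4.65%, was below it. At 4-fold, 1 member was higher (background 8.92%) and 5 were lower (background 13.5%), namely Hdac5, Hdac9, Kdm6b, Kdm7a and Tet1. The median log2 fold of the 43 genes, expanded over freshly isolated, was -0.55, beside 0.04 over all measured genes. Together the 44 genes took 0.286% of the counts in expanded and 0.468% in freshly isolated cells.

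**Figure D1:**
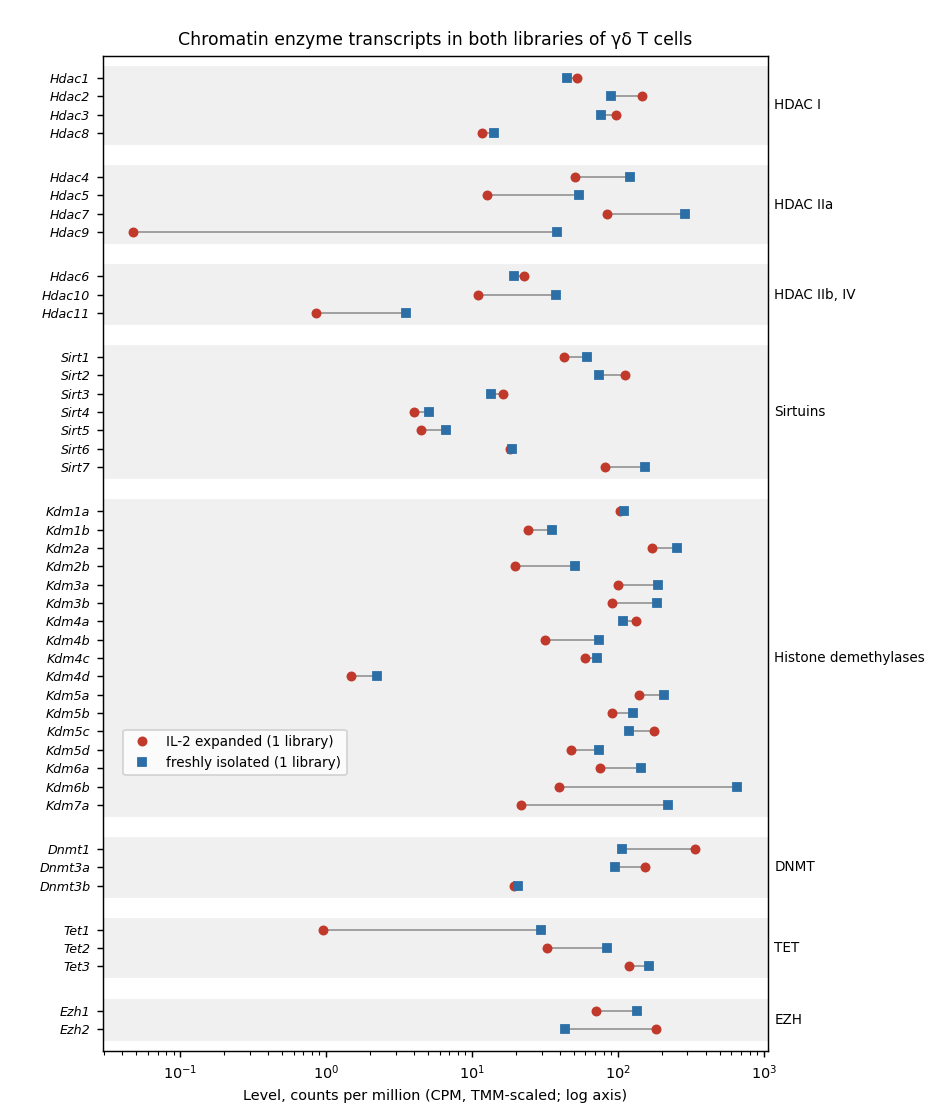
Level of the 43 measured genes in CPM on a log axis, by class, with 1 circle for the IL-2 expanded library and 1 square for the freshly isolated library. Ezh2 and Dnmt1 show the widest gaps with the circle to the right, and Hdac9, Tet1, Kdm6b and Kdm7a the widest with the circle to the left.

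The 2 EZH genes stood in opposite order in the libraries. Ezh2 (chromosome 6, 47530274 to 47595338, build GRCm38, minus strand), the main catalytic PRC2 subunit of dividing cells, had 3857 counts (184 CPM) in expanded and 942 counts (43.8 CPM) in freshly isolated cells, 4.19-fold higher (interval 3.9 to 4.51). Ezh1 (chromosome 11, 101191115 to 101226463, minus strand), its paralog typical of resting cells, had 1487 counts (70.7 CPM) in expanded and 2904 counts (134.9 CPM) in freshly isolated cells, 1.91-fold lower (interval 1.79 to 2.03). Per kilobase of gene model, Ezh2 was therefore the more abundant of the pair in expanded cells and Ezh1 in freshly isolated cells. The ratio of Ezh2 to Ezh1 per kilobase was 5.61 in expanded cells (interval 5.29 to 5.96) and 0.702 in freshly isolated cells (interval 0.652 to 0.756). This ratio is taken within a library and is free of scaling, and it was 8.0 times as high in expanded cells (interval 7.26 to 8.80).

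Dnmt1 (chromosome 9, 20907206 to 20959888, minus strand), the maintenance DNA methyltransferase, had 7163 counts (341 CPM) in expanded and 2288 counts (106 CPM) in freshly isolated cells, 3.21-fold higher (interval 3.06 to 3.36). The de novo enzyme Dnmt3a had 154 CPM in expanded and 95.6 CPM in freshly isolated cells, 1.61-fold higher (interval 1.52 to 1.70). The second de novo enzyme, Dnmt3b, had 19.5 and 20.6 CPM in expanded and freshly isolated cells, and the counting interval of the ratio (0.825 to 1.08) included 1. The maintenance enzyme was thus the member furthest apart. Per kilobase, Dnmt1 made up 72.9% of the family in expanded and 53.4% in freshly isolated cells, Dnmt3a 20.4% and 29.8%, and Dnmt3b 6.75% and 16.8%.

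The promoters of Ezh2 and Dnmt1, the members at least 2-fold higher, are shown with those of Ezh1 (1.91-fold lower) and Tet1 (31.4-fold lower), because the proliferation markers were also higher in expanded cells and E2F factors are known to drive many genes of the cell cycle. The windows are RefSeq's (build GRCm38.p6), run from 250 bases before to 50 bases after an annotated start and are all on the minus strand. Capitals mark the E2F words searched for on both strands (TTTCCCGC, TTTCGCGC, TTTGCCGC or TTTGGCGC), and bases are counted from 1 at the 5′ end. The Ezh2 window (chr6:47594981-47595280) holds 1 match, at bases 254 to 261. Of the 3 Dnmt1 windows, the one shown (chr9:20952574-20952873) holds 2, at bases 32 to 39 on the opposite strand and at bases 284 to 291, and the other two, which start at 20952930 and 20959839, hold 0. Neither the Ezh1 window (chr11:101226414-101226713) nor the Tet1 window (chr10:62887275-62887574) holds one. The Tet1 window lies outside the counted Tet1 span (62804570 to 62880014), so that the start of this span was not searched. The Ezh2 window lies inside the counted Ezh2 span, and the start of that span (47595338) was not searched either. The Dnmt1 window shown also lies inside its counted span. The start of the Dnmt1 span (20959888) falls in the window at 20959839, which holds 0.
Ezh2: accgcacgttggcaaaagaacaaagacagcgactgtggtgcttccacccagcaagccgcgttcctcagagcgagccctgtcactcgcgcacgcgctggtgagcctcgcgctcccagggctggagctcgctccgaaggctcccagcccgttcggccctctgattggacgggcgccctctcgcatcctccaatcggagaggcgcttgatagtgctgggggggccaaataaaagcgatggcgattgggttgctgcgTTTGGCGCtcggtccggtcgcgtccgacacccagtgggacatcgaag
Dnmt1: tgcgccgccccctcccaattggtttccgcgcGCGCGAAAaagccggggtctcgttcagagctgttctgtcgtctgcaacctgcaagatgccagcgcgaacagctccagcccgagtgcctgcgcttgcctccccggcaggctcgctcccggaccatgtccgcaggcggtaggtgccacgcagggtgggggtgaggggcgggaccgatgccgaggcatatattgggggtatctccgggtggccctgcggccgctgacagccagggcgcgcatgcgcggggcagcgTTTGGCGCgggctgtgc
Ezh1: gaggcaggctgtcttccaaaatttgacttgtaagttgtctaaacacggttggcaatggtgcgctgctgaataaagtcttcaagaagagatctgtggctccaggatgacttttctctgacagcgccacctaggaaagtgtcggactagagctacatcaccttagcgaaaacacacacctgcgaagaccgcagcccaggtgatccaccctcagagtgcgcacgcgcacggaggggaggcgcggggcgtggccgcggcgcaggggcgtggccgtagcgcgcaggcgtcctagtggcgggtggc
Tet1: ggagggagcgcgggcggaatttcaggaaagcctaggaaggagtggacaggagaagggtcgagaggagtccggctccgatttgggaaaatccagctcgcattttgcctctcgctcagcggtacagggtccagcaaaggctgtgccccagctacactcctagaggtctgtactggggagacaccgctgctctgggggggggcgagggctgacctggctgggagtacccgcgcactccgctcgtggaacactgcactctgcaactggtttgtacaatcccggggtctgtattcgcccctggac

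Both marked words nearest to a start, in Ezh2 and Dnmt1, are the same 8 letters, TTTGGCGC. RefSeq promoter windows were matched for 36 of the 44 genes, 54 windows in all, since a gene can have several starts. An E2F word stood in a window of both higher genes (2 of their 4 windows), of 0 of the 9 lower genes with a window and of 1 of the 24 genes within 2-fold (Sirt4). The 9 lower genes include Tet1, whose window lies outside its counted span. In Ezh2 and Dnmt1, the windows with a word do not hold the start of the counted span. Among all 9194 measured genes with a window, 4.87% had such a word, and among all 32851 windows 2.26% did. The other words searched were more common over all windows. CCAAT was present in 35.2% of the members' windows and 37.4% of all windows, and TTTGAA, a core of the cell cycle homology region, in 13.0% and 17.9%. By direction, CCAAT stood in 3 of 4 windows of the higher genes, 5 of 16 of the lower genes and 11 of 31 of those within 2-fold. TTTGAA stood in 1, 1 and 5 of these windows. A match describes the letters only, and binding was not measured.

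Of the 3 enzymes that oxidise methylated DNA, Tet1 and Tet2 were at least 2-fold lower in expanded cells, and Tet3 lay within 2-fold. Over all measured genes 25.0% were at least 2-fold lower and 52.6% lay within 2-fold. Tet1 (chromosome 10, 62804570 to 62880014, minus strand) had 20 counts (0.951 CPM) in expanded and 643 counts (29.9 CPM) in freshly isolated cells, 31.4-fold lower (interval 20.2 to 51.8). Tet2, the member best known as a tumour suppressor in blood cells, had 32.6 and 84.9 CPM in expanded and freshly isolated cells, 2.61-fold lower (interval 2.39 to 2.85). Tet3 had 120.1 and 162 CPM, 1.35-fold lower (interval 1.28 to 1.42). Tet3 was the most abundant per kilobase in both libraries, with 76.6% of the family in expanded and 57.8% in freshly isolated cells, while Tet1 held 0.503% and 8.82%. Macrophage and B cell markers (above) were lower in expanded cells too, and how much of the freshly isolated Tet1 signal came from such cells was not tested.

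**Figure D2:**
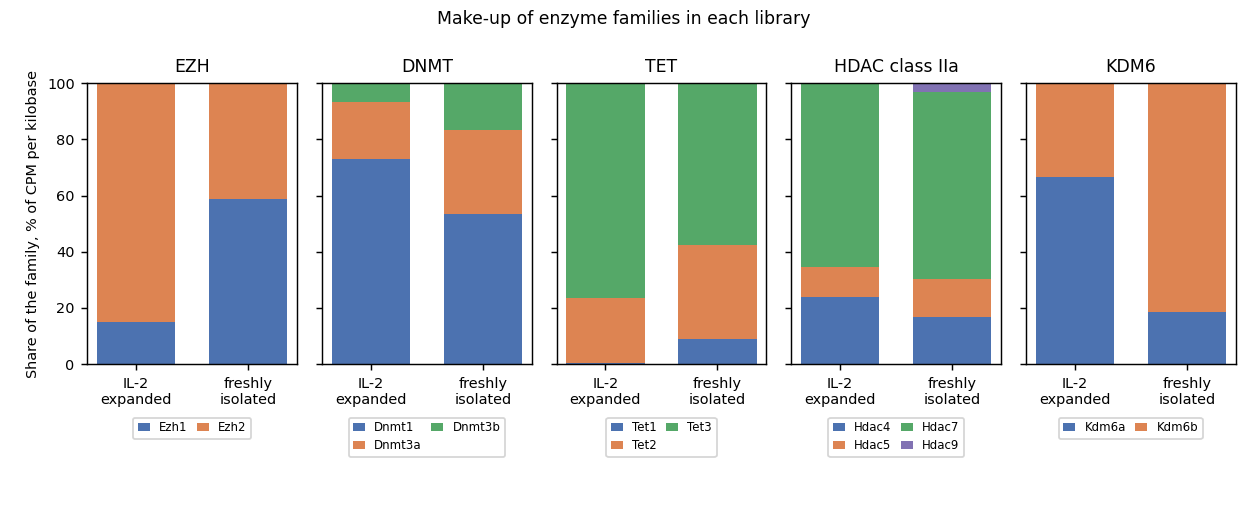
Share of each gene in its family, in percent of the summed CPM per kilobase of gene model, for the IL-2 expanded library (left bar) and the freshly isolated library (right bar). Ezh2 made up 84.9% of the EZH pair in expanded and 41.2% in freshly isolated cells, and Kdm6b 33.4% and 81.4% of Kdm6a and Kdm6b.

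Of the enzymes that remove the Polycomb mark, Kdm6b was at least 2-fold lower in expanded cells and Kdm6a lay within 2-fold. Kdm6b, also called JMJD3, which many stimuli induce (chromosome 11, 69398518 to 69413673, minus strand), had 831 counts (39.5 CPM) in expanded and 14200 counts (660 CPM) in freshly isolated cells, 16.7-fold lower (interval 15.6 to 17.9). In freshly isolated cells its level per kilobase was above that of 95.1% of all measured genes, and in expanded cells above that of 37.3%. Kdm6a, or UTX, its X-linked paralog, had 75.2 CPM in expanded and 144 CPM in freshly isolated cells, 1.91-fold lower (interval 1.80 to 2.03). Uty, the Y-linked counterpart of Kdm6a outside the symbol rule, had 43.5 and 31.7 CPM, 1.37-fold higher (interval 1.24 to 1.52). Reads shared by Kdm6a and Uty make the division between them uncertain. Per kilobase, Kdm6b stood at 0.502 times Kdm6a in expanded cells (interval 0.461 to 0.546) and at 4.38 times in freshly isolated cells (interval 4.21 to 4.55). Of the reads on demethylase genes within the symbol rule, Kdm6b alone took 2.97% in expanded cells (interval 2.78 to 3.18). In freshly isolated cells it took 25.1% (interval 24.7 to 25.4). The immediate early genes, at 683 CPM in expanded and 15879 CPM in freshly isolated cells, differed in the same direction.

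Kdm7a (chromosome 6, 39136620 to 39206773, minus strand), a Jumonji demethylase of repressive lysine marks, followed with 454 counts (21.6 CPM) in expanded and 4755 counts (221 CPM) in freshly isolated cells, 10.2-fold lower (interval 9.29 to 11.3). Of the 17 demethylase genes, 5 were at least 2-fold lower, 0 were at least 2-fold higher and 12 lay between (median log2 fold -0.57). The share lower, 29.4%, was near the 25.0% of all measured genes, of which 22.4% were higher and 52.6% lay between. Their summed level was 1330 CPM in expanded and 2632 CPM in freshly isolated cells. Without Kdm6b and Kdm7a the sums were 1269 and 1752 CPM, so that these 2 genes held most of the gap.

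The remaining lower demethylases were Kdm2b, Kdm4b and Kdm3b. Kdm2b, which brings a variant Polycomb complex 1 to unmethylated CpG islands, had 19.6 and 50.5 CPM in expanded and freshly isolated cells (2.58-fold lower), while its paralog Kdm2a had 172 and 253 CPM (1.47-fold lower). Kdm4b, which acts on a heterochromatin mark, had 31.4 and 74.3 CPM (2.36-fold lower). Its paralogs differed less, and Kdm4a in the other direction. Kdm4a had 134 CPM in expanded and 108 CPM in freshly isolated cells (1.24-fold higher), Kdm4c 59.9 and 72.2 CPM (1.21-fold lower), and Kdm4d, best known from testis, 1.48 and 2.23 CPM from 31 and 48 counts. Kdm3b had 90.8 and 186 CPM (2.05-fold lower) and Kdm3a, which hypoxia is known to induce, 99.6 and 187 CPM (1.88-fold lower). Kdm3b was therefore just past the 2-fold limit and Kdm3a just within it, as were Kdm6a and Ezh1 (1.91-fold each) and Sirt7 (1.87-fold).

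The KDM5 demethylases, which act on the methyl mark of active promoters, did not all differ in the same direction. X-linked Kdm5c had 178 CPM in expanded and 119 CPM in freshly isolated cells, 1.5-fold higher (interval 1.42 to 1.57). Y-linked Kdm5d had 48.1 and 73.8 CPM in expanded and freshly isolated cells, 1.53-fold lower (interval 1.42 to 1.66). Per kilobase, Kdm5c stood at 2.54 times Kdm5d in expanded cells (interval 2.37 to 2.73) and at 1.11 times in freshly isolated cells (interval 1.04 to 1.18). The 2 genes are X and Y copies of one ancestral gene, so that reads shared by both make this division uncertain. The other KDM5 genes were lower than in freshly isolated cells by less than 2-fold, Kdm5a with 140.5 and 208 CPM and Kdm5b with 91.0 and 128 CPM. The flavin-dependent Kdm1a, the CoREST partner LSD1, was nearly level at 103 and 111 CPM (1.07-fold lower) and had the highest share of the demethylases per kilobase in expanded cells, 17.4%, where it held 9.90% in freshly isolated cells. Kdm1b had 24.1 and 35.3 CPM (1.47-fold lower). The deposited spans of Kdm1b and Dek share 513 bases on opposite strands, and Dek had 341 and 179 CPM, so that the division of reads between them is uncertain where strand was not used.

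**Figure D3:**
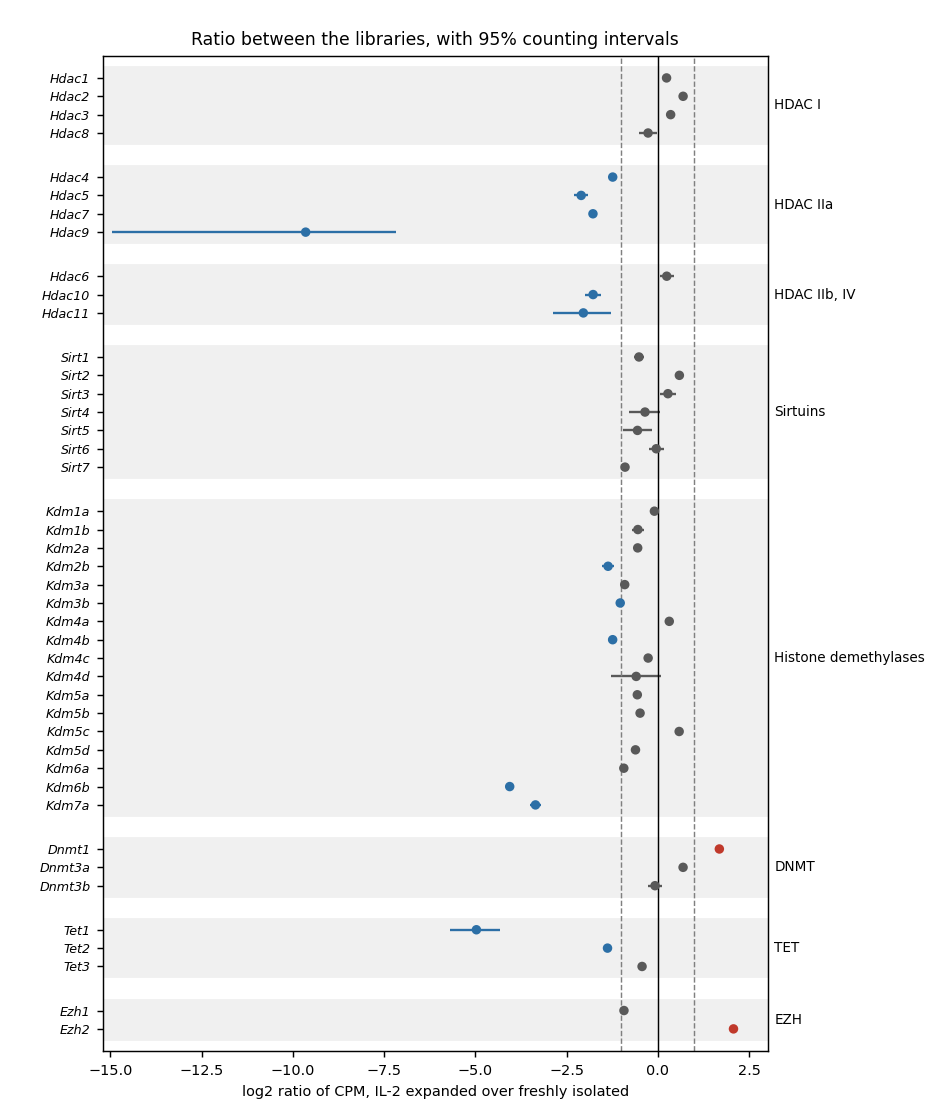
Ratio of CPM, IL-2 expanded over freshly isolated, on a log2 scale for the 43 measured genes, with bars for the exact 95% counting interval and dashed lines at 2-fold. Points coloured red are at least 2-fold higher (Ezh2 and Dnmt1), points coloured blue at least 2-fold lower (13 genes), and the long bar of Hdac9 comes from its 1 count in expanded cells.

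Among histone deacetylases, none of the 4 class I genes, the catalytic cores of the nuclear corepressor complexes, was 2-fold apart, and all 4 class IIa genes were at least 2-fold lower. Over all measured genes 52.6% lay within 2-fold and 25.0% were lower, and the difference between the classes was not tested. In class I, Hdac2 had 146 CPM in expanded and 90.5 CPM in freshly isolated cells (1.61-fold higher). Hdac1, its partner in the NuRD, Sin3 and CoREST complexes, had 52.7 and 44.8 CPM (1.18-fold higher), and Hdac3, the enzyme of the NCoR complex, 97.7 and 76.8 CPM (1.27-fold higher). Hdac8, which also acts on cohesin, had 11.7 and 14.1 CPM (1.21-fold lower). Class I summed to 308 CPM in expanded and 226 CPM in freshly isolated cells. Hdac3 was the most abundant per kilobase in both libraries, with 41.8% of the class in expanded and 43.0% in freshly isolated cells.

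Class IIa enzymes shuttle between nucleus and cytoplasm with the phosphorylation set off by antigen receptor signals, and bind MEF2 factors. Their sum was 148 CPM in expanded and 503 CPM in freshly isolated cells. Hdac7, the member known for its high level in T lineage cells, had 1771 counts (84.2 CPM) in expanded and 6232 counts (289.5 CPM) in freshly isolated cells, 3.44-fold lower (interval 3.26 to 3.62). It was the most abundant of the class per kilobase in both libraries, at 65.5% in expanded and 66.8% in freshly isolated cells.

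Hdac4 had 51.3 CPM in expanded and 121 CPM in freshly isolated cells, 2.36-fold lower (interval 2.20 to 2.54). Hdac5 had 12.6 and 54.2 CPM, 4.30-fold lower (interval 3.76 to 4.93). Hdac9 (chromosome 12, 34047582 to 34917095, minus strand), whose gene also gives shorter forms without the catalytic domain, was at the level of a single read in expanded cells. It had 1 count (0.0476 CPM) there and 822 counts (38.2 CPM) in freshly isolated cells, a ratio of 0.00125 with an interval of 3.15e-05 to 0.00696. Some macrophage and B cell markers, such as Lyz2, Csf1r and Cd22, also had 0 or 1 count in expanded cells. Others did not, among them Cd68 with 436 counts and Cd79b with 76 counts there. The part of macrophages and B cells in the Hdac9 value was not tested.

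Of the remaining zinc-dependent deacetylases, Hdac6 differed from Hdac10 and Hdac11. Hdac6, which deacetylates tubulin in the cytoplasm, had 22.8 CPM in expanded and 19.3 CPM in freshly isolated cells (1.18-fold higher). Hdac10, a polyamine deacetylase, had 10.9 and 37.5 CPM (3.43-fold lower, interval 2.96 to 3.98). Hdac11, the only class IV enzyme, had 18 counts (0.856 CPM) in expanded and 76 counts (3.53 CPM) in freshly isolated cells, 4.12-fold lower (interval 2.44 to 7.33).

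None of the 7 sirtuins was 2-fold apart, beside the 22.4% and 25.0% of all measured genes that were at least 2-fold higher and lower. Per kilobase, the most abundant in expanded cells was Sirt2, a mainly cytoplasmic deacetylase, with 48.8% of the family there and 30.1% in freshly isolated cells. It had 112 CPM in expanded and 74.2 CPM in freshly isolated cells, 1.5-fold higher (interval 1.41 to 1.60). In freshly isolated cells Sirt7, a nucleolar sirtuin tied to ribosomal gene transcription, was the most abundant, with 22.7% of the family in expanded and 39.4% in freshly isolated cells. It had 81.8 CPM in expanded and 153 CPM in freshly isolated cells, 1.87-fold lower (interval 1.76 to 1.98). The 2 genes thus changed places at the top of the family. Sirt1, a nuclear deacetylase of histones and transcription factors, had 42.6 and 61.0 CPM in expanded and freshly isolated cells (1.43-fold lower), and nuclear Sirt6 had 18.1 and 18.7 CPM, with a counting interval of the ratio (0.839 to 1.12) that included 1. The mitochondrial sirtuins differed by less than 1.5-fold. Sirt3 had 16.3 CPM in expanded and 13.5 CPM in freshly isolated cells, Sirt4 4.0 and 5.11 CPM, and Sirt5, a desuccinylase, 4.47 and 6.60 CPM. Sirt3 shares 69 bases with Ric8a on the other strand (152 and 130 CPM), so that its value is uncertain to that extent.

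The partners of these enzymes were taken from lists of known complex members, chosen with earlier results of these data known. Of 9 PRC2 partner genes, 3 were at least 2-fold higher (33.3%, beside 22.4% of all measured genes) and 1 was lower (11.1%, beside 25.0%). Their median log2 fold was 0.67 (0.04 over all genes). The higher count depended on the scaling, with 2 under DESeq2 size factors (without Rbbp7), 1 under upper quartile scaling and under total count without the top 50 genes (Phf19), and 0 under total count. The higher ones were Phf19 (18.3 and 8.32 CPM in expanded and freshly isolated cells), the DNA-binding cofactor Aebp2 (359 and 173 CPM) and the histone chaperone Rbbp7 (321 and 160 CPM). The core subunits were within 2-fold, Suz12 with 275 and 171 CPM and Eed with 113 and 83.3 CPM. The lower one was Phf1, a cofactor in the same class as Phf19, with 16.9 and 173 CPM, 10.2-fold lower (interval 9.18 to 11.4). Of 18 PRC1 subunits, 0 were at least 2-fold higher and 4 were lower (22.2%, near the 25.0% of all measured genes), among them Cbx7, which reads the Polycomb mark, with 7.04 and 245 CPM, 34.8-fold lower (interval 29.6 to 41.2). The PRC1 ligase gene Rnf2 had 38.8 and 111 CPM (2.87-fold lower), whereas Pcgf2 (16.3 and 10.4 CPM) and Yaf2 (36.7 and 29.0 CPM) were the members furthest up.

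Beside Dnmt1, the genes that act with it at replicating DNA were the ones furthest apart in their list. Of 12 cofactors, readers and base excision genes, 2 were at least 2-fold higher (16.7%, beside 22.4% of all measured genes) and 1 was lower (8.33%, beside 25.0%). Their median log2 fold was 0.04. Uhrf1, which brings DNMT1 to half-methylated DNA, had 152 CPM in expanded and 10.9 CPM in freshly isolated cells, 13.9-fold higher (interval 12.2 to 16.0). Hells, a chromatin remodeller needed for DNA methylation, had 144 and 11.2 CPM, 12.8-fold higher (interval 11.3 to 14.7). The lower gene was the methyl-DNA reader Zbtb4 with 29.4 and 120.5 CPM (4.10-fold lower). Proliferation markers such as Mki67 (754 and 24.1 CPM) differed in the same direction as Uhrf1, Hells, Dnmt1 and Ezh2.

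The complexes that hold class I deacetylases were nearly level as a list. Of 25 genes, 1 was at least 2-fold higher and 3 were lower, both smaller shares than the 22.4% and 25.0% of all measured genes. The higher one was Rbbp7, also a PRC2 partner, which lay within 2-fold under all 4 other scalings. The median log2 fold was 0.00, and the sums were 4272 CPM in expanded and 4212 CPM in freshly isolated cells. The lower ones were the remodeller Chd3 (145 and 623 CPM, 4.30-fold lower), Rcor2 (0.761 and 3.44 CPM) and the NCoR subunit Gps2 (37.3 and 86.9 CPM). Chd4, the main NuRD remodeller, had 607 and 453 CPM, and the Sin3 subunit Sap30, the second furthest up, 23.3 and 12.2 CPM.

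**Figure D4:**
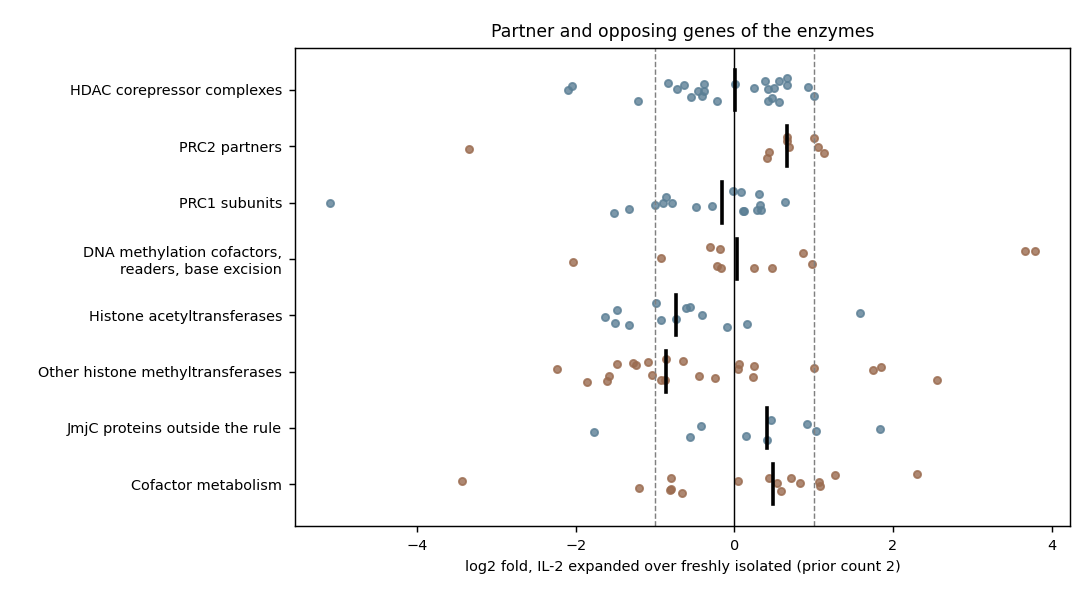
Log2 fold, IL-2 expanded over freshly isolated, of each measured gene in 8 lists of partner and opposing genes, with the list median as a black bar and dashed lines at 2-fold. The medians run from -0.87 (other histone methyltransferases) to 0.67 (PRC2 partners).

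Acetyltransferases and other methyltransferases do the opposing chemistry. Of 13 histone acetyltransferases, 4 were at least 2-fold lower (30.8%, near the 25.0% of all measured genes) and 1 was higher, with a median log2 fold of -0.74. Ncoa1 (23.1 and 71.7 CPM in expanded and freshly isolated cells) and Kat6b (17.2 and 49.3 CPM) were furthest down. The higher one was Hat1, which acetylates newly made histones, with 126 and 42.2 CPM (2.99-fold higher), followed by Kat2a with 84.6 and 75.9 CPM. Of 23 other histone methyltransferases in the table, 9 were lower (39.1%) and 4 were higher (17.4%), beside 25.0% and 22.4% of all measured genes, with a median of -0.87. Under the 4 other scalings 3 were higher and 9 to 12 were lower. Nsd2 (287 and 48.7 CPM, 5.89-fold higher) and Suv39h2, a heterochromatin enzyme (19.3 and 5.30 CPM), were furthest up. Ash1l (31.1 and 147 CPM, 4.75-fold lower) and the MLL gene Kmt2a (88.8 and 324 CPM, 3.65-fold lower) were furthest down.

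Among 9 Jumonji proteins outside the symbol rule, 2 were higher (22.2%, beside 22.4% of all measured genes) and 1 was lower. Riox2, a nucleolar hydroxylase, had 180.0 CPM in expanded and 50.5 CPM in freshly isolated cells, and Kdm8, within 2-fold under 3 of the 4 other scalings, 12.04 and 5.85 CPM. Jmjd1c, a relative of Kdm3a and Kdm3b, had 69.7 and 238 CPM, and Phf2 had 89.1 and 132 CPM. Of 16 genes for the cofactors of these enzymes, 4 were higher (25.0%, beside 22.4% of all measured genes) and 2 were lower. Ahcy, which clears the product of methyl transfer, had 29.0 and 5.81 CPM (5.00-fold higher), and Idh3a, an enzyme of 2-oxoglutarate synthesis, 157 and 65.1 CPM. The NAD synthesis gene Qprt had 0.951 and 11.2 CPM from 20 and 241 counts (11.8-fold lower), and D2hgdh had 10.6 and 24.6 CPM.

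The lower members had long gene models. The median length was 7.67 kilobases for the 13 lower members, 4.62 kilobases for the 28 within 2-fold and 3.34 kilobases for all measured genes. Among all measured genes with a model of at least 5 kilobases, 27.3% were at least 2-fold lower and 17.3% higher, and under 5 kilobases 24.1% were lower and 24.3% higher. Of the members, 9 of 23 were lower at 5 kilobases or more, and 4 of 20 below that.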

How the data were processed

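RNA-seq was made from 2 libraries of total RNA, and each column of the deposited table was matched to its library by title. The authors deposited raw read counts per gene beside gene symbols, spans and gene model lengths. Per the submitters' processing notes, the tools included the aligner STAR 2.6.0 and the read counter HTSeq 0.6.0, and the builds mm10 and GRCm38 were named. The sources used here do not give settings, annotation release or use of strand.

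TMM scaling in edgeR 4.0.16 gave factors of 0.947 for the expanded and 1.06 for the freshly isolated library, and total counts were 22204099 and 20379385. Levels per kilobase divide CPM by the deposited length. Log2 folds use a prior count of 2, single-gene folds are plain ratios of CPM, and counts of genes use the log2 folds at a mean of at least 1 CPM. Intervals are exact conditional 95% intervals (Clopper-Pearson for shares). All 44 members are named, and of each partner list the 2 at either end of the log2 folds, any at least 4-fold apart, and some others chosen after their values were seen. A gene this rule takes is not reported here. Members, lists and promoter words were chosen with earlier results of these data known. On simulated data for this comparison (11715 genes), 100% of 200 genes changed 4-fold were counted past 2-fold, 8 unchanged genes were, and 95.6% of intervals held the true fold. The simulated counts were Poisson draws at the library sizes of the data, without variation between samples. The intervals assume the same model, so this checks the calculation and cannot show how often single libraries differ by 2-fold. Alternatives were 4 scalings (DESeq2 1.42.0 size factors among them), 2 prior counts, 2 filters and 2 thresholds.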

Additional observations from a re-analysis of the deposited data

How the results depend on the processing

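No member changed its direction under any of the scalings, prior counts or filters tried. The count at least 2-fold higher stayed at 2 under these, and the count lower lay between 12 and 17. Scaling by total count moved the median of all genes by -0.16 (log2) and gave 19.1% higher and 27.8% lower over all genes. Under it 17 members were lower, with Ezh1, Kdm3a, Kdm6a and Sirt7 added, and 1 sirtuin and 1 EZH gene were counted lower. Under upper quartile scaling, and under total count after the top 50 genes of either library were removed, 15 were lower and Ezh1 again made 1 lower EZH gene. With a mean of at least 5 CPM, Hdac11 dropped out, which left 1 lower gene in classes IIb and IV.

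The threshold moved the counts more. At 4-fold, 1 member was higher and 5 were lower. By class these were 0 higher DNA methyltransferases, and 2 lower class IIa genes, 0 lower genes of classes IIb and IV, 2 lower demethylases and 1 lower TET gene. At 1.5-fold, 5 members were higher (background 33.0%) and 18 lower (background 32.9%). By class, 1 class I gene, 2 DNA methyltransferases and 1 sirtuin were then higher, and 8 demethylases, 1 EZH gene and 1 sirtuin lower. No paired analysis was possible because each group has 1 library. Depth limits Hdac9, Hdac11, Tet1 and Kdm4d, with 1 to 31 counts in expanded cells.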
